A study of Mus musculus with 6 samples.

Results

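The sarcoplasmic reticulum calcium handling genes examined here were 10 genes picked by name, of 17556 genes in the deposited table: the release genes *Ryr2*, *Trdn*, *Jph2*, *Casq2* and *Sri*, the uptake genes *Atp2a2*, *Pln* and *Hrc*, the exchanger *Slc8a1* and the kinase *Camk2d*. All 10 were found in the table and all 10 were tested. They were measured by bulk RNAseq of whole left ventricles from 3 Cre-positive and 3 Cre-negative siblings, aged 6 to 10 weeks, at 4 days after permanent ligation of the left anterior descending artery (4 dpi). Both groups carried floxed *Yap* and *Wwtr1* alleles, and both ate tamoxifen citrate diet from the time of surgery. The Cre-positive mice also carried a copy of MerCreMer, a Cre recombinase that tamoxifen activates, under the endogenous periostin promoter, so that both *Yap* alleles and 1 *Wwtr1* allele were to be depleted, whereas Cre-negative siblings had wildtype periostin. The driver is active in myofibroblasts, the activated fibroblasts of the infarct, whereas most of the 10 genes are chiefly expressed by cardiomyocytes, which the labels do not describe as a target of the Cre. The labels do not give the sex of the mice, and every heart was infarcted, so no level of an uninjured ventricle stands beside these values.

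In cardiomyocytes each contraction starts when calcium entering through L-type channels opens ryanodine receptors (RyR2) in the facing membrane of the sarcoplasmic reticulum. Junctophilin 2 holds the membranes together, and triadin links the receptor to calsequestrin 2, the buffer that stores calcium in the lumen. For relaxation the SERCA2 pump, encoded by *Atp2a2* and restrained by phospholamban, returns calcium to the store, and the sodium-calcium exchanger NCX1, encoded by *Slc8a1*, removes the rest from the cell. Lower SERCA2 activity relative to phospholamban and leaky RyR2 channels are known features of failing hearts. The comparison asked whether these transcripts differed between ventricles with and without the myofibroblast driven Cre.

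The 6 libraries held 13177888 to 14827579 estimated counts each. Cre-negative replicate 1 stood apart: every pair of libraries that included it gave a chi-square of 44.5 to 68.8 per gene, against 8.13 to 17.2 for the other pairs. It had the highest summed cardiomyocyte marker TPM (94443, against 79595 and 79298 in the other Cre-negative ventricles), the lowest summed fibroblast marker TPM (4953, against 7571 to 8909 in the other 5 ventricles) and the highest summed neutrophil marker TPM (423, against 53.2 to 162). Members and gene lists are therefore also given without it. Whole-ventricle *Yap1* did not differ detectably (log2 fold change 0.03, 95% interval -0.17 to 0.23, adjusted p = 0.935), nor did *Wwtr1* (0.05, adjusted p = 0.876), and these are RNA from all cells of the ventricle. In TPM both were higher in all Cre-positive ventricles (*Yap1* 48.9 to 50.7 against 44.2 to 46.3, *Wwtr1* 43.9 to 47.4 against 39.3 to 43.6). However, genes in general stood higher in Cre-positive ventricles on that scale, by a median of 0.11 with limma on log2(TPM + 1). In normalized counts the genotypes overlapped for *Yap1* and for *Wwtr1*. *Postn*, the driver locus and a myofibroblast gene, had 12165, 24655 and 26879 normalized counts in Cre-negative and 12689.9, 14249 and 13495 in Cre-positive ventricles (log2 fold change -0.66, adjusted p = 0.714); with Cre-negative replicate 1 left out, its adjusted p was 0.0182.

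The 10 transcripts together took 1.95% of all counts in Cre-negative replicate 1 and 1.37% or less in each of the other 5 ventricles. In TPM, a scale per transcript length on which genes can be set side by side, their mean levels over 6 ventricles ran from 3223 for *Atp2a2* to 45.1 for *Trdn*. *Atp2a2* stood above *Pln*, which had a mean level of 2912 TPM, in 6 of 6 ventricles. Next came *Casq2* at 559 TPM, *Hrc* at 263 TPM, *Jph2* at 177 TPM and *Ryr2* at 91.0 TPM, each below the one before it in 6 of 6 ventricles. The lower end was closely spaced: *Ryr2* was above *Sri* (mean level 69.7 TPM) in 5 of 6 ventricles, *Sri* was above *Camk2d* (63.6 TPM) in 5 of 6 ventricles, *Camk2d* was above *Slc8a1* (48.9 TPM) in 6 of 6, and *Slc8a1* was above *Trdn* (45.1 TPM) in only 3 of 6, so that last order was not separated from the spread between ventricles. Thus the pump and its inhibitor were the most abundant transcripts of the set, and the triadin and exchanger transcripts the scarcest, in both genotypes.

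**Figure D1:**
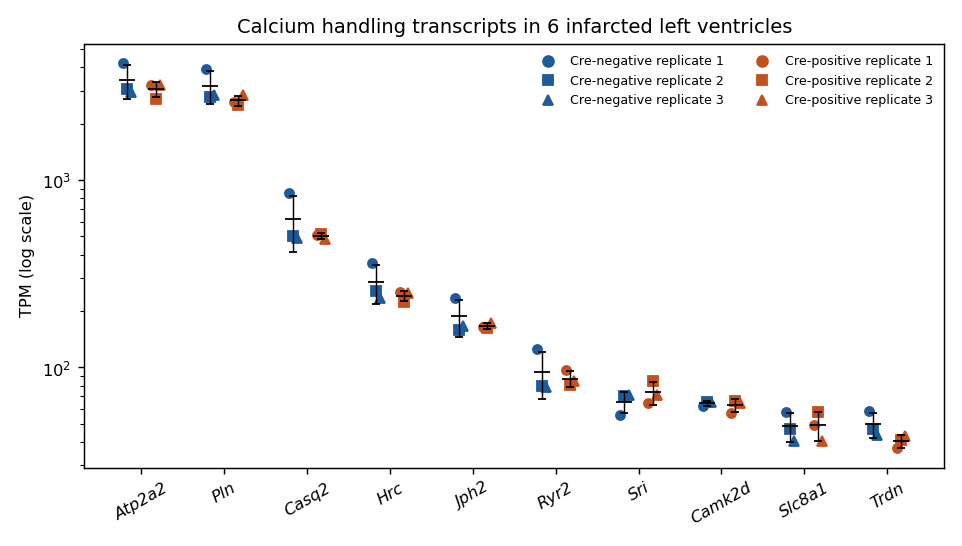
TPM (log scale) of the 10 transcripts in each of 6 ventricles, with the group mean and SD (n = 3) as black bars and the genes ordered by mean level. Cre-negative replicate 1 (blue circle) lies above the other ventricles for most genes, for example *Casq2* at 851 TPM, and the genotypes overlap in every gene but *Trdn*.

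For 9 of 10 members the estimated log2 fold change of Cre-positive over Cre-negative ventricles was below 0, as it was for 48.8% of all 13817 genes tested. With libraries scaled by 14 cardiomyocyte markers 4 of 10 estimates were below 0, but that scaling raised the median of all genes to 0.29, and the members' median minus that of all genes was -0.26, against -0.30 without the scaling. Values given under this marker scaling stand against a median of all genes of 0.29. None of the 10 passed an adjusted p of 0.05 in edgeR's quasi-likelihood test, and 1, *Trdn*, had an unadjusted p under 0.05. Across all genes 1 gene, or 0.00724%, was called at the adjusted threshold, and 806 genes, or 5.83%, had an unadjusted p under 0.05. DESeq2 and limma likewise called no member, with 2 and 0 members at an unadjusted p under 0.05. In normalized counts all 3 Cre-positive ventricles lay below all 3 Cre-negative ventricles for 3 members (*Trdn*, *Pln* and *Camk2d*), a pattern met by 946 genes, or 6.85% of those tested. No member lay above in all 3, as 1043 genes, or 7.55%, did. The median log2 fold change was -0.30 over the members and 0.01 over all genes tested.

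The 10 estimates are not independent of each other, because 9 of 10 genes, all but *Sri*, had their highest normalized count in Cre-negative replicate 1. Without that ventricle the median over the members was -0.05, 8 of 10 estimates were below 0, and the estimates ran from -0.24 for *Trdn* to 0.07 for *Ryr2*, with adjusted p of 0.729 or more. The coefficient of variation among Cre-negative ventricles was 4.38% for *Camk2d* and up to 40.2% for *Casq2*, and among Cre-positive ventricles it ran from 4.36% for *Camk2d* to 13.4% for *Ryr2*.

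**Figure D2:**
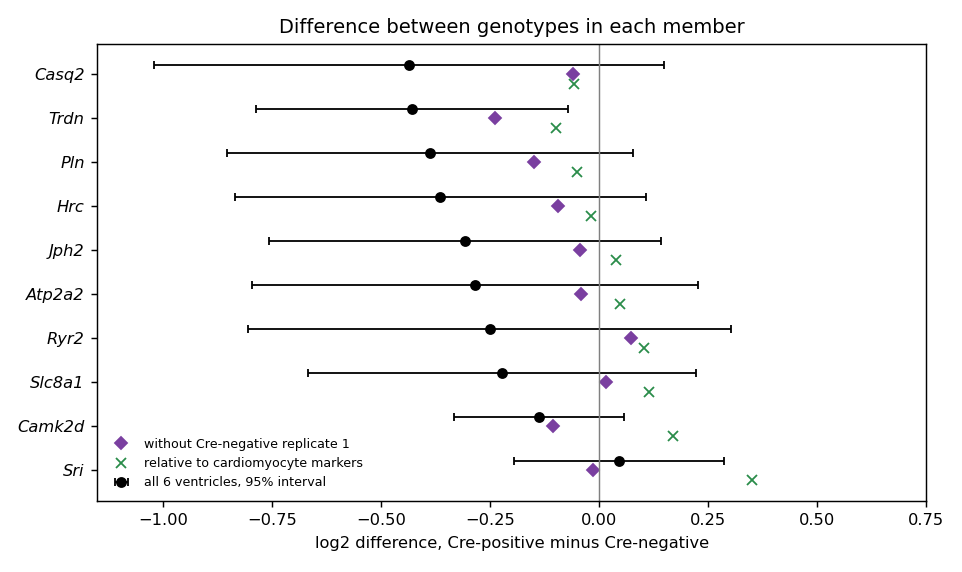
Log2 difference between Cre-positive and Cre-negative ventricles for each member: edgeR estimate with its 95% interval over 6 ventricles (black), edgeR estimate without Cre-negative replicate 1 (purple) and difference in level relative to 14 cardiomyocyte markers (green). Black points run from -0.44 (*Casq2*) to 0.05 (*Sri*), and most purple and green points lie nearer to 0 or above it. For the green points 0 is the level of the markers, which were themselves lower in Cre-positive ventricles.

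Among the release genes *Ryr2* (gene number 20191, chromosome 13 from 11553099 to 12106945; all positions in the GRCm38.p6 build) encodes the release channel itself. Its normalized counts, scaled by library size and TMM factors, were 18576, 10597 and 10413 in the Cre-negative ventricles and 12749.7, 9897 and 10622 in the Cre-positive ventricles. Cre-negative replicate 1 was the highest ventricle and Cre-positive replicate 1 came next, with the other 4 between 9897 and 10622. The means were 13196 ± 4661 and 11089.6 ± 1483 (SD, n = 3 each), a log2 fold change of -0.25 (SE 0.24, 95% interval -0.80 to 0.30, adjusted p = 0.764). Without Cre-negative replicate 1 the estimate was 0.07, and scaling by cardiomyocyte markers gave 0.09, where the median of all genes was 0.29.

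*Trdn* (gene number 76757, chromosome 10 from 33083483 to 33476709) encodes triadin, the anchor between the channel and calsequestrin. It had 2283, 1657 and 1526 normalized counts in Cre-negative and 1293, 1335 and 1433 in Cre-positive ventricles, means of 1822 ± 405 and 1353 ± 72.1 (SD, n = 3 each). All Cre-positive ventricles were lower than all Cre-negative ones, in TPM too (58.4, 47.2 and 43.6 against 37.0, 41.2 and 43.0), although Cre-negative replicate 3 and Cre-positive replicate 3 were close together. The difference gave a log2 fold change of -0.43 (SE 0.15, 95% interval -0.79 to -0.07, adjusted p = 0.714), and an exact permutation test of the log values gave p = 0.1, the smallest that 3 against 3 ventricles allow. Before adjustment its interval was the only one among the members that did not include 0, but the unadjusted p was 0.492 with libraries scaled by cardiomyocyte markers (log2 fold change -0.11), 0.0768 without Cre-positive replicate 1 and 0.0662 without Cre-positive replicate 2. Without Cre-negative replicate 1 the estimate was -0.24 (SE 0.08, unadjusted p = 0.0187, adjusted p = 0.729).

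*Jph2* (gene number 59091, chromosome 2 from 163336242 to 163398049), which tethers the surface membrane to the sarcoplasmic reticulum, had 8595, 5219 and 5443 normalized counts in Cre-negative and 5344, 4874 and 5342 in Cre-positive ventricles. The 5 ventricles other than Cre-negative replicate 1 lay between 4874 and 5443, and the genotypes overlapped. The log2 fold change was -0.31 (SE 0.19, 95% interval -0.76 to 0.14, adjusted p = 0.714) with all ventricles and -0.04 without that one, and 0.02 with libraries scaled by cardiomyocyte markers.

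*Casq2* (gene number 12373, chromosome 3 from 102086415 to 102146514), the cardiac isoform of the luminal calcium buffer, differed most between Cre-negative replicate 1 and its group, at 1.91 times the mean of the other 2 Cre-negative ventricles. Its normalized counts were 18255, 9727 and 9418 in Cre-negative and 9745, 9101 and 8793 in Cre-positive ventricles. The genotypes overlapped, since Cre-positive replicate 1 was above both remaining Cre-negative ventricles. The log2 fold change was the lowest among the members, -0.44 (SE 0.25, 95% interval -1.02 to 0.15, adjusted p = 0.714), and was -0.06 without Cre-negative replicate 1 and -0.08 with marker scaling.

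*Sri* (gene number 109552, chromosome 5 from 8046078 to 8069314) encodes sorcin, a calcium sensor that binds RyR2 and that many cell types express. Its normalized counts were 1146, 1295 and 1294 in Cre-negative and 1181, 1429.7 and 1245 in Cre-positive ventricles. It was the one member that was lowest in Cre-negative replicate 1, and its highest value was in Cre-positive replicate 2. The groups overlapped, with a log2 fold change of 0.05 (SE 0.10, 95% interval -0.19 to 0.29, adjusted p = 0.903). The sign turned without Cre-negative replicate 1 (-0.01) or without Cre-positive replicate 2 (-0.04), and marker scaling put the estimate at 0.32 (SE 0.22).

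Among the uptake genes *Atp2a2* (gene number 11938, chromosome 5 from 122453513 to 122502225), which encodes SERCA2, was at 4194, 3043 and 2956 TPM in Cre-negative and 3202, 2715 and 3228 TPM in Cre-positive ventricles. In normalized counts the means were 119474 ± 32515 and 98103 ± 12233 (SD, n = 3 each). The lowest ventricle was Cre-positive replicate 2 and the highest Cre-negative replicate 1. Cre-positive replicates 1 and 3 were both above Cre-negative replicates 2 and 3. This gave a log2 fold change of -0.28 (SE 0.22, 95% interval -0.79 to 0.23, adjusted p = 0.727), an estimate that became -0.04 without Cre-negative replicate 1 and 0.04 under scaling by cardiomyocyte markers.

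*Pln* (gene number 18821, chromosome 10 from 53337686 to 53345999) encodes phospholamban, the small membrane protein that slows the pump until it is phosphorylated. It was measured at 78031, 50033 and 50812 normalized counts in Cre-negative and 46472, 41762 and 48475 in Cre-positive ventricles, means of 59626 ± 15945 and 45569 ± 3446 (SD, n = 3 each). In this unit the groups did not overlap (exact permutation p = 0.1), whereas in TPM (3894, 2778 and 2836 against 2599.6, 2522 and 2841) Cre-positive replicate 3 was above Cre-negative replicates 2 and 3. The difference gave a log2 fold change of -0.39 (SE 0.20, 95% interval -0.85 to 0.08, adjusted p = 0.714) and -0.15 without Cre-negative replicate 1, or -0.06 with marker scaling.

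*Hrc* (gene number 15464, chromosome 7 from 45335269 to 45338973) encodes the histidine-rich calcium binding protein, which binds both SERCA2 and triadin from within the lumen. It had 7435, 4776 and 4367 normalized counts in Cre-negative and 4649.5, 3842 and 4392 in Cre-positive ventricles. As for *Atp2a2*, Cre-negative replicate 1 was highest and Cre-positive replicate 2 lowest, but Cre-positive replicates 1 and 3 lay between Cre-negative replicates 2 and 3. The log2 fold change was -0.36 (SE 0.20, 95% interval -0.83 to 0.11, adjusted p = 0.714) and -0.09 without Cre-negative replicate 1, or -0.04 with marker scaling.

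The exchanger gene *Slc8a1* (gene number 20541, chromosome 17 from 81373105 to 81738387) had 8734, 5937 and 5332 normalized counts in Cre-negative and 5689, 6329 and 5134 in Cre-positive ventricles. Cre-positive replicate 2, the lowest ventricle for *Atp2a2*, *Pln* and *Hrc*, was the second highest ventricle for *Slc8a1*. The genotypes overlapped, with a log2 fold change of -0.22 (SE 0.19, 95% interval -0.67 to 0.22, adjusted p = 0.749). The sign of this estimate turned without Cre-negative replicate 1 (0.02). It was 0.12 under scaling by cardiomyocyte markers and 0.02 with limma on log2(TPM + 1), where the medians of all genes were 0.29 and 0.11.

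*Camk2d* (gene number 108058, chromosome 3 from 126595487 to 126846326) encodes the delta chain of calcium/calmodulin-dependent kinase II, which phosphorylates RyR2 and phospholamban. It varied least among the members: its normalized counts were 2204, 2047 and 2044 in Cre-negative and 1817, 1919 and 1982 in Cre-positive ventricles, with no overlap (exact permutation p = 0.1). Its means were 2098 ± 91.9 and 1906 ± 83.1 (SD, n = 3 each), with a log2 fold change of -0.14 (SE 0.08, 95% interval -0.33 to 0.06, adjusted p = 0.714). Without Cre-negative replicate 1 the estimate was -0.11, with libraries scaled by cardiomyocyte markers it was 0.15 (all genes 0.29), and in TPM the groups overlapped (62.2, 65.0 and 65.5 against 57.2, 66.6 and 64.9). *Camk2d* and *Casq2* lie on chromosome 3 with the driver locus *Postn* and with *Wwtr1*, at 72.2 and 47.7 Mb from *Postn*.

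Since most of these genes are cardiomyocyte genes, their levels were set beside 14 cardiomyocyte markers (*Actc1*, *Mb* and others) that are not members. All 14 markers had estimates below 0, with a median log2 fold change of -0.33, and 0 of 14 passed the adjusted threshold, 3 having an unadjusted p under 0.05 (*Myl2*, *Myl3* and *Cox6a2*, named after their values were seen). DESeq2 and limma called none of them either. The median of the markers without Cre-negative replicate 1 was -0.17, 13 of 14 were below 0 (all but *Ttn*) and 4 had an unadjusted p under 0.05. The summed TPM of the markers was 79298 to 94443 in Cre-negative and 69716 to 76537 in Cre-positive ventricles, which did not overlap. The mean centred log2 level of the members was 0.49, -0.04 and -0.08 in Cre-negative replicates 1 to 3 and -0.09, -0.17 and -0.12 in Cre-positive replicates 1 to 3. For the markers the corresponding values were 0.44, 0.02, -0.0004, -0.09, -0.27 and -0.10. In RNA of a whole ventricle, fewer cardiomyocytes and less of these transcripts per cardiomyocyte cannot be told apart.

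**Figure D3:**
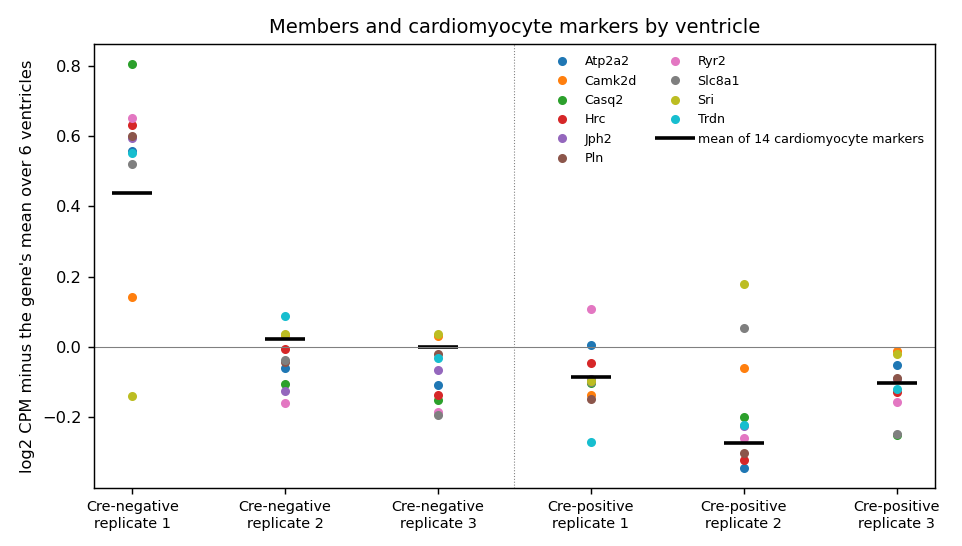
Centred log2 CPM of each member in each ventricle (points, by gene) with the mean of 14 cardiomyocyte markers (black bars). Most members follow the markers, high in Cre-negative replicate 1 and low in Cre-positive replicate 2, while *Sri* runs the other way in both.

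Relative to the markers the genotypes overlapped for all 10 members. On this scale 0 is the level of the markers, which were themselves lower in Cre-positive ventricles. The markers' median log2 fold change was -0.33, and -0.17 without Cre-negative replicate 1, so a gene that did not change would stand above 0. *Trdn* was lower by a log2 difference of -0.10 (exact permutation p = 0.3), *Casq2* by -0.06 (exact p = 0.9), *Pln* by -0.05 (exact p = 0.7) and *Hrc* by -0.02 (exact p = 0.9). *Atp2a2* (0.05, exact p = 0.7), *Jph2* (0.04, exact p = 0.8), *Ryr2* (0.10, exact p = 0.6), *Slc8a1* (0.11, exact p = 0.6) and *Camk2d* (0.17, exact p = 0.4) had differences above 0. *Sri* stood at 0.35 (exact p = 0.3). Without Cre-negative replicate 1 the difference was 0.15 for *Sri*, 0.24 for *Ryr2*, 0.18 for *Slc8a1*, 0.13 for *Jph2*, 0.12 for *Atp2a2* and 0.06 for *Camk2d*. *Casq2* (0.11), *Hrc* (0.07) and *Pln* (0.02) then turned above 0, and *Trdn* was at -0.07. The SD over 6 ventricles narrowed from 0.31 to 0.08 on the log2 scale for *Pln* and from 0.30 to 0.10 for *Atp2a2* once levels were taken relative to the markers, but it widened for *Sri*, from 0.11 to 0.33, and for *Camk2d*, from 0.09 to 0.17. Both varied less over the ventricles than the other members before that step. Sorcin and the kinase are transcribed in other cells of the heart as well, and any part of those cells in the widening was not tested.

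The balance between partners was compared as ratios of TPM within a ventricle, for 7 pairs listed with the genes. The phospholamban to pump ratio, *Pln*/*Atp2a2*, was 0.929, 0.913 and 0.959 in Cre-negative and 0.812, 0.929 and 0.880 in Cre-positive ventricles. It thus varied less than either transcript alone, and the genotypes overlapped (log2 difference -0.10, exact permutation p = 0.3). For *Trdn*/*Ryr2* the ratios were 0.464, 0.591 and 0.554 against 0.383, 0.510 and 0.510, lowest in Cre-positive replicate 1 (log2 difference -0.20, exact p = 0.4). *Casq2*/*Ryr2* gave 6.77, 6.33 and 6.24 against 5.27, 6.35 and 5.71 (log2 difference -0.16, exact p = 0.3). The exchanger to pump ratio, *Slc8a1*/*Atp2a2*, reached 0.0213 in Cre-positive replicate 2, whereas the other ventricles lay between 0.0126 and 0.0155 (exact p = 0.7). *Jph2*/*Ryr2*, *Hrc*/*Casq2* and *Ryr2*/*Atp2a2* had log2 differences of -0.06, 0.04 and 0.05. None of the 7 ratios separated the genotypes, and all 7 adjusted p were 0.8.

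**Figure D4:**
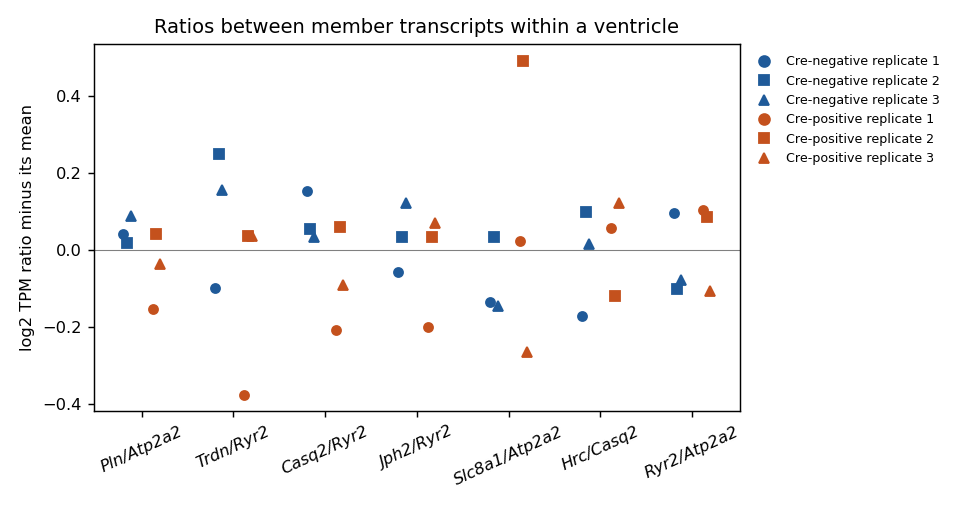
Log2 TPM ratio of member pairs within each ventricle, minus the mean of that ratio over 6 ventricles. The genotypes overlap in every pair, and the point furthest from 0 is *Slc8a1*/*Atp2a2* in Cre-positive replicate 2.

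A further 62 genes of the calcium pathway were read from a fixed list, of which 59 were in the table under these symbols and 56 were tested. Estimates were below 0 for 29 and above 0 for 27, with a median log2 fold change of -0.04. Leaving out Cre-negative replicate 1, 32 were below 0 and 24 above, and with libraries scaled by cardiomyocyte markers, where the median of all genes was 0.29, 5 were below 0. edgeR called 0 of 56, as did DESeq2 and limma, and in edgeR 6 had an unadjusted p under 0.05, 1 below 0 and 5 above. Of 15 genes of the trigger and the dyad, the site where channel and receptor face each other, 11 had estimates below 0 (median -0.19). The most abundant of them were *S100a1* (-0.21, SE 0.15), a calcium sensor that acts on RyR2 and SERCA2, *Calm3* (-0.11), a calmodulin gene, and *Fkbp1a* (0.02), which encodes an immunophilin that binds ryanodine receptors. The 13 kinase and phosphatase genes gave 10 below 0 (median -0.12), and the most abundant of them were *Prkar1a* (-0.04), a regulatory chain of protein kinase A, *Ppp1ca* (-0.09), a catalytic chain of protein phosphatase 1, and *Prkaca* (-0.25), a catalytic chain of protein kinase A. Neither list held a gene with an unadjusted p under 0.05. Without Cre-negative replicate 1 the median was -0.05 for either list, with 10 of 15 and 9 of 13 genes below 0, and *S100a1* (-0.06), *Calm3* (-0.04) and *Prkaca* (-0.05) were nearer to 0, whereas *Prkar1a* and *Ppp1ca* were at -0.09 each.

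Of the other 5 release channel genes 3 had estimates above 0 (median 0.27), and 4 of 5 without Cre-negative replicate 1 (median 0.28). *Itpr1*, an inositol trisphosphate receptor gene of many cell types, had 508, 558 and 592 normalized counts in Cre-negative and 669, 688 and 661 in Cre-positive ventricles, higher in all 3 (0.28, SE 0.09, unadjusted p = 0.0123, adjusted p = 0.714). *Itpr3*, of the same family, had 286, 294 and 259.5 and 348, 299 and 362, again higher in all 3 (0.27, SE 0.11, unadjusted p = 0.0487, adjusted p = 0.714). *Itpr2* was at -0.07. *Atp2b4*, a plasma membrane calcium pump gene, likewise lay higher in all 3 Cre-positive ventricles, with 703, 672 and 738 against 582, 568 and 623 normalized counts (0.25, SE 0.08, unadjusted p = 0.0161, adjusted p = 0.714). With Cre-negative replicate 1 left out, the estimates were 0.22 for *Itpr1*, 0.28 for *Itpr3* (unadjusted p = 0.0582) and 0.24 for *Atp2b4*. Summed TPM of endothelial markers was also higher in all Cre-positive ventricles (579 to 653 against 477 to 574), with none of 7 markers called. Their median log2 fold change in edgeR was 0.06, and on log2(TPM + 1) the median of all genes was itself 0.11. The part of endothelial cells in these values was not tested.

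Skeletal isoforms were high in a single ventricle, and an atrial gene varied widely among all 6. *Atp2a1*, the fast skeletal muscle pump gene, had 1068 counts in Cre-positive replicate 1 and 6 to 15 in the other 5 ventricles, and *Ryr1*, the skeletal release channel gene, had 139 against 6 to 14; *Ryr1* is named after its values were seen. The log2 fold change was 2.68 for *Ryr1* and 5.08 for *Atp2a1*, and without that ventricle they were 0.46 and -0.47. Most listed skeletal muscle markers were high in the same ventricle: *Myh1* had 756 counts there and 0 to 5 elsewhere, *Myh2* 208 and 0 to 1, *Tnnt3* 627 and 89 to 120, and *Tnni2* 237 and 21 to 33 (named after their values were seen). *Myh4* (35 against 0) and *Mylpf* (123 against 2 to 13) were high there too. *Ckm* and *Acta1*, also listed, had their highest normalized counts in Cre-negative replicate 1 (27269 and 25857, against 18056 and 25338 in Cre-positive replicate 1). *Sln*, which encodes sarcolipin, the atrial and skeletal inhibitor of the pump, ranged from 5.04 TPM in Cre-positive replicate 2 to 318 in Cre-positive replicate 1, with 189, 141 and 31.2 TPM in Cre-negative ventricles. Of the other 3 atrial markers, *Myl7* (492, 306 and 61.1 TPM in Cre-negative, 611, 18.1 and 185 in Cre-positive ventricles) and *Myl4* (626, 509 and 78.5 against 1268, 31.9 and 183 TPM) had their highest and lowest values in the same ventricles as *Sln*. *Nr2f2* did not, at 11.2 to 16.8 TPM over all 6. The list of other pumps and their regulators, *Atp2a1*, *Sln* and *Atp2a3* (-0.14), had 2 of 3 above 0 with or without Cre-negative replicate 1 (median 0.05 with it and 0.62 without). Without Cre-positive replicate 1 all 3 were below 0 (median -0.47), with *Sln* at -1.62. What part atrial or skeletal tissue had in these libraries was not tested.

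Among luminal buffers other than *Casq2*, 4 of 5 genes had estimates above 0 (median 0.19), including *Hsp90b1* (0.27) and *Calr* (0.22), chaperones of the endoplasmic reticulum in all cells, and *Calu* (0.14), a calcium binding protein of the secretory pathway, and without Cre-negative replicate 1 the median was 0.10, with *Hsp90b1* at 0.15 and *Calr* at 0.09. All 3 plasma membrane extrusion genes tested were above 0 (median 0.08), with *Atp2b1* at 0.08 and *Slc8a2* at 0.04 beside *Atp2b4*, and 2 of 3 without that ventricle (median 0.02). The 7 mitochondrial calcium genes had a median of 0.01 with 3 below 0, and of -0.01 with 4 below 0 without Cre-negative replicate 1. The most abundant were *Smdt1*, *Micu2* (0.01) and *Letm1* (-0.19), of which *Smdt1*, a regulatory subunit gene of the mitochondrial uniporter, was lower in all 3 Cre-positive ventricles, at 1559.5, 1404 and 1273 against 1917, 1580.4 and 1688 normalized counts (-0.29, SE 0.11, unadjusted p = 0.0339, adjusted p = 0.714). Store-operated entry, through *Stim1* and *Orai* genes, had a median of 0.01 over 5 genes, and of -0.08 without Cre-negative replicate 1, its most abundant genes being *Orai1* (-0.12), *Orai3* (0.01) and *Stim1* (0.0035). *Smdt1* without that ventricle was at -0.21 (unadjusted p = 0.0593).

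By likeness of centred log2 levels over 6 ventricles, *Jph2* lay nearest to the mean of the members (root mean square distance 0.06), followed by *Pln* (0.08), *Atp2a2* and *Hrc* (0.09 each). *Sri* was the furthest, at 0.30, next to *Camk2d* at 0.17. The closest pairs were *Hrc* with *Atp2a2* and *Jph2* with *Pln*. Among all tested genes outside the set, those nearest to the mean profile were *Dbi* (0.02), *Ppp3cc* (0.03), *Immt* (0.03), *Kif13a* (0.03) and *Ndufb3* (0.03).

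To show members that followed the cardiomyocyte markers to different degrees, promoter sequences were taken from RefSeq (GRCm38.p6), which gave windows for 8 of the 10 genes. The 250 bases before the start are printed 5′ to 3′ for *Pln*, which followed the markers closely, *Slc8a1*, which did so less, and *Sri*, which did not. They are chr10:53337436-53337685 on the plus strand, chr17:81738388-81738637 on the minus strand and chr5:8045828-8046077 on the plus strand. Capitals mark matches, on either strand and with overlaps allowed, to the core promoter letters TATAAA. They also mark the letters AGATAA, which zinc finger factors of the Gata family recognise. The third motif marked is that of the Tead factors, which carry Yap and Wwtr1 to DNA, with the letters CATTCC.
Pln: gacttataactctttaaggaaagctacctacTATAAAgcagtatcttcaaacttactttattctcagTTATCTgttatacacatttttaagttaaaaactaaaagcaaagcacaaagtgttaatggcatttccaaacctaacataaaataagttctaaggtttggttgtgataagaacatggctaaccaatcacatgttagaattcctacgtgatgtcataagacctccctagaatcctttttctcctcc
Slc8a1: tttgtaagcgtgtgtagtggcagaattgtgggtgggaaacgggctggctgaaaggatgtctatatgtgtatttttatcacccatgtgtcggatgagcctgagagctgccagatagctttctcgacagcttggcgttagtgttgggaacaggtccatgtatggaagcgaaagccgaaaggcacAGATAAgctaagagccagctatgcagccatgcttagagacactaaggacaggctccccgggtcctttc
Sri: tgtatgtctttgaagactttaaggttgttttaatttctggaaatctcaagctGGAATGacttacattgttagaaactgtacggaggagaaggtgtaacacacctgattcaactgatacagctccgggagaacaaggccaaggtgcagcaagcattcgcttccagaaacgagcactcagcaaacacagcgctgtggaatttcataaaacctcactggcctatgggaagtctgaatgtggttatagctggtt

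In the *Pln* window the match to the core promoter letters began 219 bases before the start and the Gata match, which is on the other strand, 183 bases before it. The *Slc8a1* window had its Gata match 68 bases before the start, and the *Sri* window had its Tead match, on the other strand, 198 bases before it. Such matches are common: among 32851 mouse windows of the same length the core promoter letters occurred in 12.4%, the Gata motif in 9.99% and the Tead motif in 12.6%. The E-box, CANNTG, was in the windows of 7 of 8 members and in 66.2% of all windows, and the GC box, GGGCGG, in those of *Camk2d*, *Hrc* and *Jph2* and in 32.7% of all. The Mef2 and CArG motifs, present in 0.508% and 1.47% of all windows, matched in none of the 8. Base composition also differed, with 32.8% G and C in the *Pln* window, 43.6% in *Sri*, 50.4% in *Slc8a1* and 68.4% in *Camk2d*, against a median of 52.4%. These are letter matches, and whether any factor binds there was not measured.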

How the data were processed

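Left ventricles of 3 Cre-negative and 3 Cre-positive mice were profiled by RNAseq at 4 dpi. RNA was extracted with TRIzol. The submitters' processing notes name Bowtie2 2.2.5, RSEM 1.2.12 and GRCm38.p6. The authors deposited estimated counts per gene, not normalized, which RSEM shares out among genes; 11.46% of values were not whole, but no member's was (tolerance 1e-06). The authors also deposited FPKM values, scaled to gene length and library size, used as an alternative for the ratios, and deposited TPM values, used for levels and ratios. The deposited DESeq2 comparison holds fold changes and p-values of the genotypes and was not used.

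Counts were rounded, filtered (filterByExpr, minimum count 10, minimum total 15), scaled by TMM and tested with edgeR 4.0.16 (quasi-likelihood, Benjamini-Hochberg adjusted p threshold 0.05) in R 4.3.3. Normalized counts are counts scaled to the mean library size. Totals of 13177888 to 14827579 counts put the floor of 3 counts at about 0.2 CPM, covering counting error only. Profiles used log2 CPM with a prior count of 2. The p-values measure the spread between mice. Single values and ratios were compared by two-sided exact permutation tests (Python 3.11.15), which with 3 against 3 cannot go below 0.1. The fit was tested on simulated data.

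Members, ratio pairs and lists were chosen with earlier results of these data known. Named genes were the members, the targeted and driver genes, the 3 pathway genes per list and 2 markers with the highest mean TPM, and the 5 genes nearest to the members' mean profile. Alternatives were DESeq2 1.42.0 (size factors, Wald test), limma 3.58.1 on log2(TPM + 1) or log2(TPM + 0.1), upper quartile scaling, scaling by cardiomyocyte markers, filters, FPKM in place of TPM for the ratios, a replicate block and leaving out each ventricle. Promoter windows came from RefSeq; *Trdn* and *Atp2a2* had no entry.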

Additional observations from a re-analysis of the deposited data

How the results depend on the processing

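No member passed the adjusted threshold under any alternative, and the estimates of *Trdn*, *Casq2*, *Pln* and *Hrc* stayed below 0 in all edgeR, DESeq2 and limma fits. The number of genes past the threshold was 1 in the reported fit, 5 with the DESeq2 Wald test, 0 with the replicate block and 0 to 2 when each ventricle was left out. Same-numbered ventricles deviated together with correlations of 0.43, 0.20 and -0.04, and ventricles of different numbers with -0.415 to 0.366. So few ventricles cannot show whether the numbers pair the mice, and the replicate block is given as an alternative only. With it 1217 genes had an unadjusted p under 0.05 and the members' median was -0.26. Scaling by cardiomyocyte markers moved the median of all genes to 0.29 and that of the members to 0.0287, left 4 members below 0, and reversed *Ryr2* (0.0862), *Jph2* (0.0218), *Atp2a2* (0.0355), *Slc8a1* (0.116) and *Camk2d* (0.152), while *Sri* moved from 0.0457 to 0.324; relative to all genes the members were then at -0.26. On log2(TPM + 1) *Slc8a1* was at 0.0209 and on log2(TPM + 0.1) at 0.0213, where the median of all genes was 0.11 and 0.12. Leaving out each ventricle gave a median over the members of -0.411 to -0.0514, the latter without Cre-negative replicate 1. The same step gave -0.394 to 0.0743 for *Ryr2*, -0.0386 to 0.103 for *Sri* and -0.359 to 0.0168 for *Slc8a1*. For the ratios it gave -0.115 to 0.0187 (*Jph2*/*Ryr2*), -0.0409 to 0.34 (*Slc8a1*/*Atp2a2*) and -0.0369 to 0.109 (*Hrc*/*Casq2*). Relative to cardiomyocyte markers it gave -0.0272 to 0.125 (*Jph2*), -0.148 to 0.11 (*Casq2*), -0.0962 to 0.0172 (*Pln*), -0.0914 to 0.0729 (*Hrc*) and -0.021 to 0.216 (*Slc8a1*). The cause of these shifts was not tested beyond what each alternative changes. FPKM in place of TPM left the sign of every ratio as it was. Within a ventricle TPM and FPKM differ only by a common factor, so this alternative could not change the ratios and is no check on them.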
